A study of Mus musculus with 12 samples.

Results

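The 42 genes described here encode the actin network of T cells and the proteins that move, cap, cut, crosslink and anchor it. They were taken by gene symbol as a named list of actins, Arp2/3 subunits, nucleators, filament regulators, myosin II chains, membrane linkers and integrin linkers, and all 42 were found among the 55291 symbols of the deposited count table. The mice were male and wild type, and RNA of their CD8+ T cells, from spleen and LNs, was sequenced in bulk in 4 groups of 3 libraries. The first group is naive, with no culture before lysis on day 0. The cells of the other groups had first spent 2 days on anti-CD3 bound to the plate, with CD28 in solution, and 1 day in rmIL-2, and on day 3 they were moved for 24 h into liquid media, a bovine collagen gel (Nutragen, 2 mg/mL) or a rat tail collagen gel (RatCol, 2 mg/mL), with RNA taken on day 4. The series asks how T cells sense the mechanics of their surroundings, and the 3 day 4 groups share their activation, time in culture and genotype.

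Actin monomers join into filaments that push the leading edge of a moving T cell forward, and they build the ring at the contact with a target cell. Profilin and thymosins hold the monomer pool, the Arp2/3 complex branches filaments under WASP and WAVE proteins, formins and Ena/VASP proteins lengthen them, and cofilin and gelsolin take them apart. Myosin II pulls on the filaments, ezrin, radixin and moesin tie them to the membrane, and talin and vinculin tie them to integrins.

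Levels are CPM (counts scaled to library size) on 1 TMM scale over the 12 libraries, given for libraries 1, 2 and 3 of a group in that order or as mean ± SD (n = 3). Changes are log2 fold changes from the edgeR quasi-likelihood F test, and adjusted p is the Benjamini-Hochberg value over all genes tested in a comparison, with a call at under 0.05. Library totals ran from 28483064 to 53138362 counts. The share of counts in annotated rRNA genes ran from 3.96% to 13.2% and was highest in bovine collagen 2 and rat tail collagen 1 and 3. In the members the SD between libraries of a group had a median of 7.81% of the mean in naive cells, 7.45% in media, 5.34% in bovine collagen and 4.32% in rat tail collagen, and the largest was 31.9% (Vcl in naive cells). The labels do not say that libraries came from separate mice, so p-values measure the spread between these libraries. Defining CD8 T cell markers were present in all groups, with Cd8a at a mean of 585 to 1012 CPM, and Cd4 had a mean of at most 4.87 CPM. Zbtb7b, also a CD4 T cell marker, had means of 6.63 CPM in naive cells, 26.0 in media, 28.2 in bovine collagen and 53.8 in rat tail collagen. Foxp3 reached 19.4 CPM in rat tail collagen 3, and Cd40lg had a mean of at most 1.41 CPM.

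Actin network transcripts made up a smaller part of the RNA after culture in rat tail collagen than in any other group. The members held 3.24% to 3.38% of all counts in the media libraries, 2.73% to 3.05% in bovine collagen, 2.16% to 2.48% in rat tail collagen and 3.26% to 3.72% in naive cells. Their summed level was 31670 to 34310 CPM in media and 21950 to 22300 CPM in rat tail collagen, and these ranges do not overlap. Against media, 33 of the 42 members were lower in rat tail collagen and 7 were higher, while Cotl1 and Myl6 were not called. Of all 19392 genes tested, 28.7% were called lower and 29.7% higher. The median log2 fold change of the members was -0.51, beside -0.01 over all genes. In bulk RNA, fewer cells of a type and less RNA per cell cannot be told apart.

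**Figure D1:**
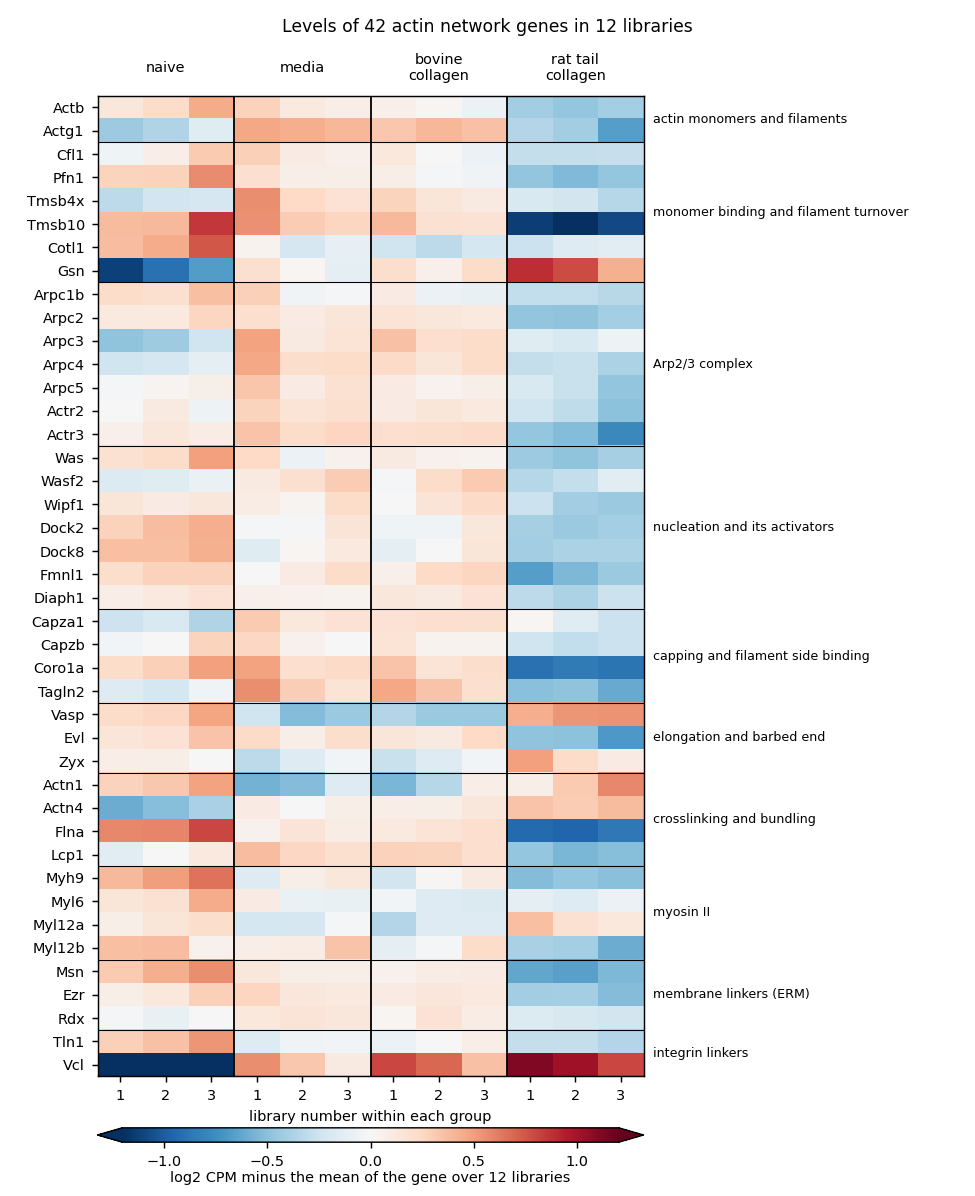
Level of each of the 42 members (rows, grouped by role) in each of the 12 libraries (columns), as log2 CPM minus the mean of that gene over the 12 libraries, with red above and blue below the mean. Most rows are blue in the 3 rat tail collagen libraries, while Gsn, Vasp, Zyx, Actn1, Actn4, Myl12a and Vcl are red there.

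The actins themselves fell in rat tail collagen. Actb, cytoplasmic beta-actin, stood at 9211, 8228 and 8023 CPM in media, at 7921, 7717 and 7235 in bovine collagen and at 5690, 5515 and 5741 in rat tail collagen. Every rat tail library lay below every other day 4 library. The log2 fold change of rat tail collagen against media was -0.60 (SE 0.09, adjusted p = 0.000164, edgeR). Actg1, cytoplasmic gamma-actin, stood at 967, 951 and 926 CPM in media and at 549, 527 and 445 in rat tail collagen, with no overlap. Its log2 change was -0.91 (SE 0.09, adjusted p = 5.71e-06, edgeR). Of the 50-base words of Actg1 transcripts, 33.2% also occur in the pseudogene Gm12715, and counts of this pair could have been split or shared: Gm12715 changed by -0.95 on the log2 scale in the same comparison. Per kilobase of principal transcript, Actb ranked 2nd among 21533 protein-coding genes in naive cells, 1st in media, 3rd in bovine collagen and 4th in rat tail collagen.

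Actg1 and Vcl, which differ most in the direction they took in rat tail collagen among the members with a CArG box before the start site, are shown here with that box in capitals. A CArG box is the site bound by serum response factor, which controls many cytoskeletal genes. Windows from 250 bases before to 50 bases after the start came from RefSeq on GRCm38.p6 and were found for 39 of the 42 members, with 50 windows in all. Actb, Cotl1 and Diaph1 had none. The box was in 4 of the 50 windows, those of Arpc4, Actg1, Vcl and the second start of Myl6, and in 1.63% of all 32851 windows, both strands searched. The letters GGGCGG (both strands) were in 39 of the 50 windows and in 35.7% of all, and TATAAA (both strands) in 1 and in 13.6%. The Actg1 stretch is chr11:120348543-120348745 (minus strand, 79.3% GC) and the Vcl stretch is chr14:20929148-20929397 (plus strand, 67.2% GC), both written 5′ to 3′ and ending before the annotated gene. The match is a description of these letters.
Actg1: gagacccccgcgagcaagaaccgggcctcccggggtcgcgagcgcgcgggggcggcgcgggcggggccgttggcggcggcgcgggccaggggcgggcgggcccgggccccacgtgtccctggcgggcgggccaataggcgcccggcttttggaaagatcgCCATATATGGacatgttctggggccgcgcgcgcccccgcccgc
Vcl: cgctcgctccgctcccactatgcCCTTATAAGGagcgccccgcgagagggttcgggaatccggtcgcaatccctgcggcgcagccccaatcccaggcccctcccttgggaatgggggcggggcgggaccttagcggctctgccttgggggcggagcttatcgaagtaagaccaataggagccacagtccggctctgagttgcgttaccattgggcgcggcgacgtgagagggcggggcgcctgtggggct

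The monomer pool and filament turnover genes split, with 4 lower, Gsn higher and Cotl1 not called in rat tail collagen against media. Tmsb10, thymosin beta 10, which holds actin monomers, changed most of all members. It stood at 1243, 1045 and 1016 CPM in media, at 1109, 959 and 958 in bovine collagen and at 388, 351 and 401 in rat tail collagen. Every rat tail library was far below the lowest of the other day 4 libraries, and the log2 change against media was -1.54 (SE 0.10, adjusted p = 2.5e-07, edgeR). Of its 50-base words, 21.6% occur in the pseudogene Gm9844, whose log2 change was -1.597. Tmsb4x, thymosin beta 4, fell from 2762 ± 414 to 1849 ± 108 CPM, a log2 change of -0.59. Pfn1, profilin 1, which loads monomers onto growing ends, changed by -0.61, from 762 ± 38.3 to 503 ± 11.9 CPM. Cfl1, cofilin 1, which severs old filaments, changed by -0.44.

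Gsn, gelsolin, which severs filaments and caps them in calcium, moved the other way. It stood at 73.1, 65.4 and 59.1 CPM in media, at 74.2, 66.9 and 74.9 in bovine collagen and at 119, 110 and 86.0 in rat tail collagen. All rat tail libraries were above the other day 4 libraries, with rat tail collagen 3 nearest to them. The log2 change against media was 0.66 (SE 0.12, adjusted p = 0.000451, edgeR). Cotl1, a coactosin-like filament binder, stood at 408, 345 and 369 CPM in media and at 330, 356 and 362 in rat tail collagen. The groups overlapped, and its log2 change of -0.11 had a 95% interval from -0.27 to 0.06.

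All 7 members of the Arp2/3 complex, which starts branches on existing filaments, fell in rat tail collagen against media. Their log2 changes ran from -0.40 (Arpc3 and Arpc1b) to -0.86 (Actr3), and the summed level went from 2424 to 2756 CPM in media to 1592 to 1771 in rat tail collagen. Actr3, the Arp3 subunit, stood at 687, 630 and 648 CPM in media, at 621, 627 and 633 in bovine collagen and at 393, 377 and 317 in rat tail collagen. Its rat tail libraries all lay below the others, and rat tail collagen 3 was lowest (adjusted p = 7.85e-06, edgeR). Actr2, the Arp2 subunit, changed by -0.56, Arpc2 by -0.62, Arpc4 by -0.62 and Arpc5 by -0.52. Arpc2 stood at 352 ± 13.2 CPM in media, 350 ± 5.58 in bovine collagen and 232 ± 7.04 in rat tail collagen. Actr3 shares 25.4% of its 50-base words with Gm8822, which is not analysed here, and Arpc4 shares 10.03% with Ttll3, a gene that overlaps it on the same strand, so their values are less certain.

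All 7 members that nucleate filaments or switch nucleation on also fell. Fmnl1, a leukocyte formin, stood at 367, 389 and 424 CPM in media, at 381, 432 and 437 in bovine collagen and at 230, 251 and 268 in rat tail collagen. The rat tail values were below all others, and the log2 change was -0.67 (SE 0.09, adjusted p = 7.16e-05, edgeR). Was, the WASP protein of blood cells, changed by -0.52, from 117 ± 12.7 to 81.9 ± 2.27 CPM. Its partner Wipf1, which keeps WASP stable, changed by -0.50, and Wasf2, a WAVE protein at the leading edge, by -0.46. Dock2 and Dock8, exchange factors for Rac and Cdc42 that lymphocytes need to migrate, changed by -0.47 and -0.40. Diaph1, a formin that starts straight filaments, had the smallest log2 change of these 7, -0.38, with libraries at 307, 305 and 304 CPM in media against 238, 226 and 247 in rat tail collagen.

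All 4 genes of capping and filament side binding fell in rat tail collagen. Coro1a, coronin 1A, which binds filament sides and Arp2/3 and is needed for T cell survival and migration, stood at 1661, 1362 and 1387 CPM in media, at 1498, 1326 and 1367 in bovine collagen and at 637, 658 and 644 in rat tail collagen. The rat tail libraries differed from each other by little and lay below every library of the other groups. The log2 change was -1.19 (SE 0.09, adjusted p = 8.14e-07, edgeR). Tagln2, transgelin 2, changed by -0.89, from 392 ± 55.6 to 213 ± 9.59 CPM. The capping proteins Capza1 and Capzb, which close the growing end, changed less, by -0.34 and -0.38. Capza1 shares 61.0% of its 50-base words with Gm3608, which is not analysed here, and its call is uncertain for that reason. With offsets for GC content and length, Capza1 changed by -0.18 (adjusted p = 0.063, edgeR) and was no longer called.

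The elongation genes went in opposite directions within 1 family. Vasp, which lengthens filaments at their growing end, stood at 261, 215 and 227 CPM in media, at 241, 226 and 227 in bovine collagen and at 417, 445 and 448 in rat tail collagen. All 3 rat tail libraries were well above the other 6, and the log2 change against media, 0.89 (SE 0.08, adjusted p = 2.84e-06, edgeR), was the highest of the 42 members. Evl, the Ena/VASP relative of Vasp, stood at 449, 402 and 443 CPM in media and at 275, 273 and 237 in rat tail collagen. Its groups did not overlap and its log2 change was -0.73 (SE 0.08, adjusted p = 1.65e-05, edgeR). Zyx, zyxin, which recruits Ena/VASP proteins to adhesions and stress fibres, stood at 145, 162 and 176 CPM in media and at 253, 210 and 193 in rat tail collagen. The groups did not overlap, and the log2 change was 0.43 (SE 0.11, adjusted p = 0.00681, edgeR). Zyx has transcripts of 61.5% GC. With offsets for GC content and length its change was -0.18 (adjusted p = 0.249, edgeR), so that its direction depends on that setting. Vasp kept its call under these offsets, at 0.44 (adjusted p = 7.59e-05, edgeR), a smaller change.

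Crosslinkers were divided too. Actn1, alpha-actinin 1, which links filaments to each other and to adhesions, stood at 252, 260 and 337 CPM in media, at 257, 296 and 396 in bovine collagen and at 393, 466 and 559 in rat tail collagen. The rat tail libraries were above all media libraries, but the highest bovine library reached the lowest rat tail library. The log2 change against media was 0.73 (SE 0.17, adjusted p = 0.00364, edgeR), with the largest SE of all members. Actn4, alpha-actinin 4, stood at 347, 324 and 341 CPM in media and at 410, 400 and 423 in rat tail collagen, without overlap, a log2 change of 0.27 (adjusted p = 0.00353, edgeR). With offsets for GC content and length it was 0.05 (adjusted p = 0.512, edgeR) and Actn4 was not called.

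Flna, filamin A, which joins filaments into a net under the membrane, was among the most lowered. It stood at 1062, 1144 and 1091 CPM in media, at 1110, 1153 and 1180 in bovine collagen and at 536, 532 and 565 in rat tail collagen. The rat tail level was far below every other library, a log2 change of -1.02 (SE 0.08, adjusted p = 6.31e-07, edgeR). Lcp1, L-plastin, the bundling protein of leukocytes, changed by -0.79, from 1736 ± 115 to 1011 ± 31.3 CPM.

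**Figure D2:**
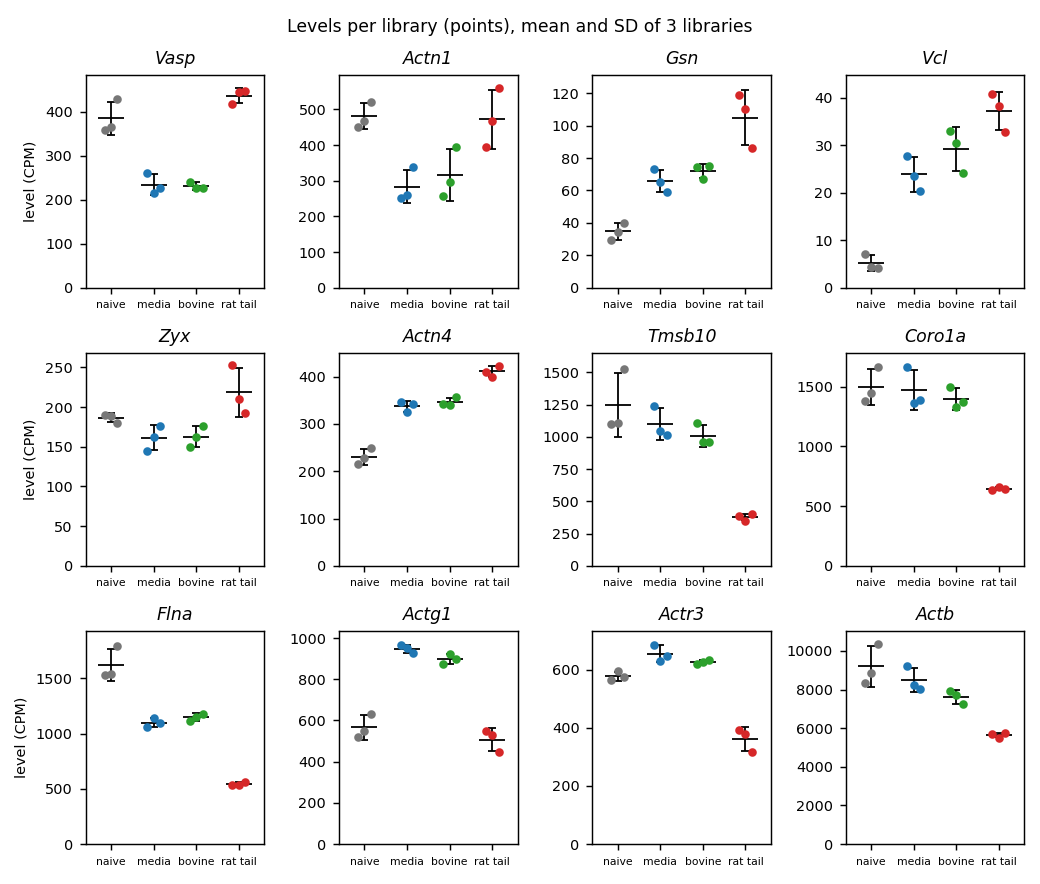
CPM of 12 members in each library (points; vertical axes start at 0), with the mean (bar) and SD (error bar) of 3 libraries, in naive cells and in cells from media, bovine collagen and rat tail collagen. In rat tail collagen Vasp, Actn1, Gsn, Vcl, Zyx and Actn4 stand above media, and Tmsb10, Coro1a, Flna, Actg1, Actr3 and Actb stand below it.

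Among the myosin II genes, Myh9, the heavy chain of non-muscle myosin IIA, fell from 2378, 2783 and 2901 CPM in media to 1840, 1920 and 1866 in rat tail collagen. All rat tail libraries were lower, and the log2 change was -0.53 (SE 0.11, adjusted p = 0.00156, edgeR). Myl12a and Myl12b encode near-identical regulatory light chains and lie next to each other on chromosome 17. Myl12a stood at 60.1, 60.4 and 68.3 CPM in media and at 89.5, 78.7 and 75.7 in rat tail collagen, a log2 change of 0.36 (adjusted p = 0.00514, edgeR), while Myl12b changed by -0.65 (adjusted p = 0.000391, edgeR). They share 16.2% and 17.6% of their 50-base words, and reads from the shared part could have been split between them. Myl6, the essential light chain, stood at 193, 172 and 170 CPM in media and at 167, 162 and 173 in rat tail collagen. Its groups overlapped and its log2 change of -0.10 had a 95% interval from -0.26 to 0.06.

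The membrane linkers ezrin, radixin and moesin fell together in rat tail collagen. Msn, moesin, the most abundant of them per kilobase in every group, stood at 999.5, 955 and 956 CPM in media, at 944, 970 and 974 in bovine collagen and at 591, 578 and 628 in rat tail collagen. The rat tail libraries were below all others, and the log2 change was -0.70 (SE 0.07, adjusted p = 6.72e-06, edgeR). Ezr changed by -0.63 and Rdx by -0.34. With offsets for GC content and length Rdx changed by -0.15 (adjusted p = 0.0525, edgeR) and was not called.

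The 2 integrin linkers took opposite directions. Vcl, vinculin, which is drawn to adhesions under tension, was the least abundant member per kilobase in naive cells and in media. It stood at 27.7, 23.6 and 20.4 CPM in media, at 32.9, 30.5 and 24.1 in bovine collagen and at 40.7, 38.1 and 32.8 in rat tail collagen. Rat tail libraries were above all media libraries and overlapped with bovine collagen. The log2 change against media was 0.63 (SE 0.14, adjusted p = 0.00198, edgeR). Tln1, talin 1, which activates integrins, stood at 769, 826 and 833 CPM in media and at 699, 698 and 667 in rat tail collagen. The ranges did not overlap, and the change of -0.24 (adjusted p = 0.0185, edgeR) was the smallest among the called members. Tln1 was not called without media 2 (adjusted p = 0.0635, edgeR), media 3 (0.0516) or rat tail collagen 3 (0.0567), or on library totals (0.211).

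**Figure D3:**
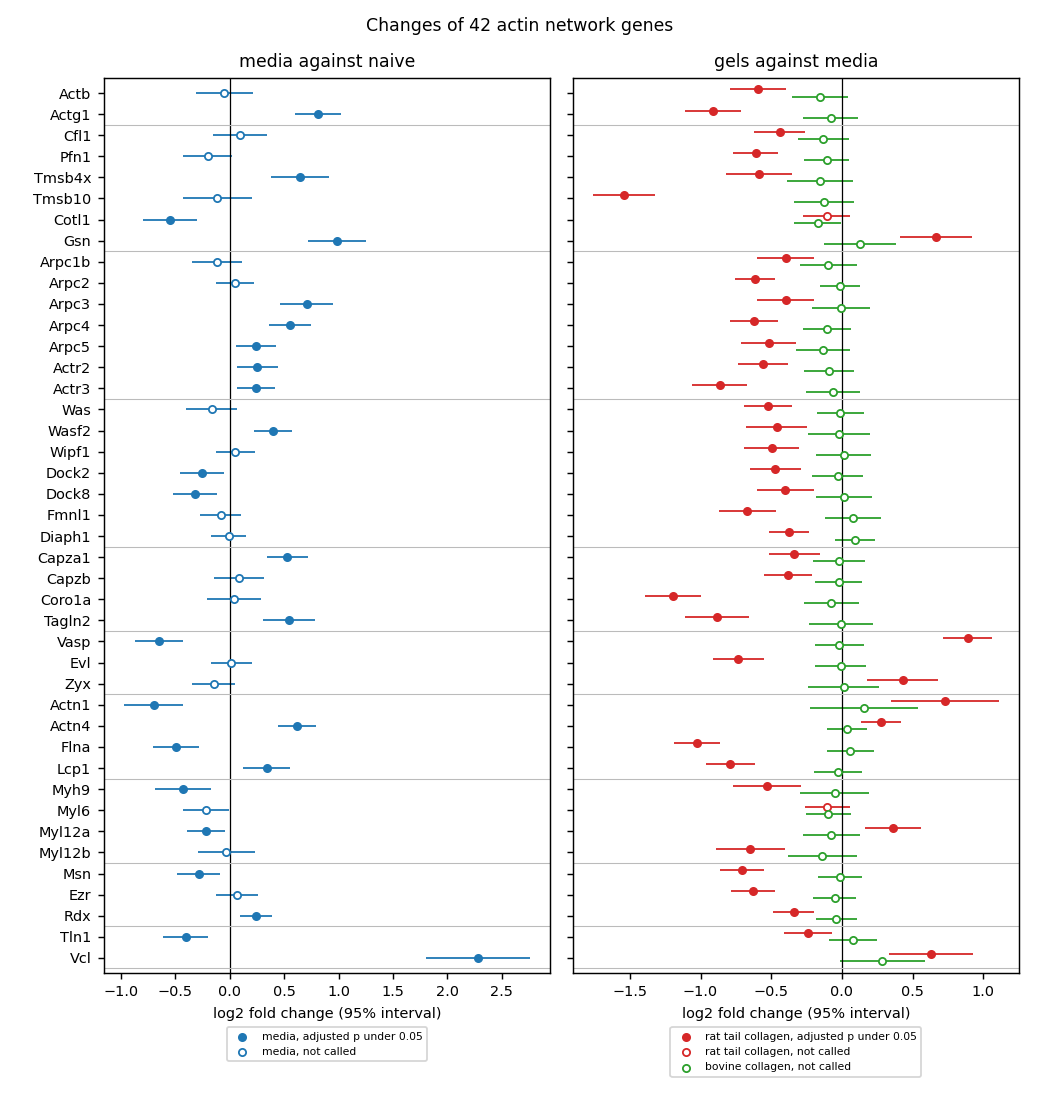
Log2 fold change of each member with its 95% interval, media against naive (left) and both gels against media (right; the 2 share the media libraries), where filled points have an adjusted p under 0.05 and open points do not. On the right, 40 of 42 rat tail collagen points are filled and all 42 bovine collagen points are open.

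No member was called between bovine collagen and media. Of all genes tested, 0.0206% were called higher and 0% lower, and DESeq2 and limma-voom called no member either. At an unadjusted p under 0.05 there was 1 member, Cotl1, with a log2 change of -0.17. Member changes ran from -0.17 (Cotl1) to 0.29 (Vcl), with a median of -0.02. The 95% intervals reached as low as -0.39 (Tmsb4x) and as high as 0.59 (Vcl). Changes of up to these sizes were therefore not excluded in those genes. For Vasp, which moved most upwards in the other gel, the interval in bovine collagen ran from -0.19 to 0.16, and for Tmsb10, which moved most downwards, from -0.34 to 0.09.

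The gels were also compared directly. In rat tail against bovine collagen 33 members were lower and 6 higher, beside 26.4% and 28.4% of all genes, and the median was -0.44. The 33 were those that were lower against media. Of the 7 raised against media, Vcl missed the threshold, with a log2 difference of 0.35 (adjusted p = 0.0503, edgeR). It was called in 11 alternatives, among them a replicate block (0.000838), DESeq2 (0.032) and limma-voom (0.0486). The 11 included the fits without bovine collagen 1 (0.0286) or rat tail collagen 3 (0.0319). Vasp differed by 0.91 (SE 0.08, adjusted p = 2.86e-06, edgeR), Tmsb10 by -1.42, Coro1a by -1.12 and Flna by -1.08. Actn1 differed by 0.57 (adjusted p = 0.0151, edgeR) and lost its call without bovine collagen 1 (0.0637), bovine collagen 2 (0.0585) or rat tail collagen 3 (0.0709). Scaling by library totals moved the median of all genes to 0.15, with 6329 genes higher and 3221 lower in place of 5499 and 5118, and then 20 members were lower and 7 higher. Rat tail and media are set beside each other in the same fit as rat tail and bovine collagen, so these comparisons share libraries.

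Some properties of the RNA moved with the gel. Malat1, a nuclear RNA, held 0.179% to 0.295% of counts in media, 0.195% to 0.276% in bovine collagen, 1.11% to 1.47% in rat tail collagen and 0.678% to 0.857% in naive cells. The summed level of 6 CD8 T cell markers (Cd3d, Cd3e, Cd3g, Trac, Cd8a, Cd8b1) was 2640 to 2914 CPM in media, 2664 to 2902 in bovine collagen and 2044 to 2307 in rat tail collagen, and 3 of the 6 were called lower in rat tail collagen against media. The summed level of 9 myeloid markers was 10.2 to 10.7 CPM in media and 19.6 to 26.0 in rat tail collagen, most of it Cd68 in rat tail collagen (18.8 ± 3.87 CPM). Lyz2 and Csf1r had means of at most 0.0736 CPM in the day 4 groups, and S100a8 and S100a9 had none. Of the 4 tested against media, Cd68, Cd14 and Fcer1g were called higher in rat tail collagen. Itgam was called lower, from 2.98 ± 0.98 to 1.08 ± 0.74 CPM (log2 -1.495, adjusted p = 0.0107, edgeR). The 11 markers of fibroblasts, endothelium and smooth muscle summed to 132 to 148 CPM in media and 74.8 to 80.7 in rat tail collagen, a difference that came from Pecam1 (136 ± 8.601 against 70.0 ± 3.09 CPM). The other 4 of this list that were tested, all at low levels, were called higher in rat tail collagen: Col1a1 (4.28 ± 0.54 CPM), Fn1 (1.71 ± 0.31), Pdgfrb (1.17 ± 0.16) and Myh11 (0.70 ± 0.16), against 0.16 to 0.50 CPM on average in media. Acta2, Tagln and Cnn1 had means under 1 CPM in all groups. The NK cell marker Klrb1c stood at 0.32 ± 0.15 CPM in media and at 8.70 ± 1.09 in rat tail collagen, while the 4 NK cell markers summed to 75.2 to 81.9 CPM in media and 41.2 to 75.9 in rat tail collagen. The 6 B cell markers summed to 894 to 1016 CPM in media and 712 to 1037 in rat tail collagen. Most of this was Ighm, which was not called, while Cd79a was called higher and Cd79b lower. The 7 red cell and platelet markers summed to 3.11 to 5.42 CPM in media and 3.29 to 4.40 in rat tail collagen, with Alas2 called higher and Pf4 lower. The part of Malat1 and of these markers in the member changes was not tested. Without bovine collagen 2 and rat tail collagen 1 and 3, a lone rat tail library was assumed to vary like the other groups, and the fit gave 3 members higher (Vasp, Gsn and Vcl) and 23 lower against media. The median of the members was then -0.49.

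Before any gel, activated cells in media and naive cells differed in both directions. Of the members, 15 were higher in media and 10 lower, and 17 were not called, beside 31.6% of genes called higher and 29.2% lower of 18610 tested. The member median was 0.02. Naive cells differ from media cells in activation, culture and day, which cannot be told apart. Without 1 library in turn the counts ran from 10 to 15 higher and from 7 to 11 lower, and 10 higher were left without naive 1 or naive 2. The myeloid markers summed to 39.0 to 137 CPM in naive libraries, highest in naive 1, where Vcl was also highest among the naive libraries, and their part in the member changes was not tested.

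Vcl showed the largest rise from naive cells, from 7.03, 4.28 and 4.12 CPM to 27.7, 23.6 and 20.4 in media. The groups were far apart, and the log2 change was 2.28 (SE 0.21, adjusted p = 1.83e-05, edgeR). Gsn followed, from 34.8 ± 5.32 to 65.9 ± 6.97 CPM, a log2 change of 0.98. Actg1 rose from 519, 547 and 633 CPM to 967, 951 and 926, a log2 change of 0.81 (adjusted p = 6.58e-05, edgeR), while Actb, at 8341, 8882 and 10370 CPM in naive cells, overlapped with media and was not called. Its log2 change of -0.05 had a 95% interval from -0.32 to 0.21. In the Arp2/3 complex 5 of the 7 members rose, led by Arpc3 at 0.71 and Arpc4 at 0.55. The calls of Actr2 (0.25), Actr3 (0.24) and Arpc5 (0.24) were lost in several alternatives. Among these was a replicate block (adjusted p = 0.0765, 0.0844 and 0.0797, edgeR). With offsets for GC content and length Actr2 changed by 0.13 (0.191) and Arpc5 by 0.06 (0.515), and neither was called. Arpc5 was not called without naive 1 or naive 2, Actr3 without any of the 3 naive libraries, and Actr2 without any naive library or without media 2. Tmsb4x rose by 0.64, Actn4 by 0.61, Tagln2 by 0.54, Capza1 by 0.53 and Wasf2 by 0.40.

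Actn1 and Vasp were the most lowered from naive to media. Actn1 went from 452, 469 and 522 CPM to 252, 260 and 337, a log2 change of -0.70 (SE 0.12, adjusted p = 0.000767, edgeR), and Vasp from 359, 366 and 429 to 261, 215 and 227, a log2 change of -0.65 (adjusted p = 0.000397, edgeR). No naive library was as low as a media library in either gene. Cotl1 changed by -0.55, Flna by -0.50, Myh9 by -0.43 and Tln1 by -0.40, and the exchange factors Dock8 and Dock2 by -0.32 and -0.26. With offsets for GC content and length Myh9 changed by -0.17 (adjusted p = 0.118, edgeR) and was not called. Dock2 changed by -0.105 with these offsets (adjusted p = 0.221, edgeR) and was not called. It was also not called when media 1, media 2, naive 2 or naive 3 was left out.

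Set side by side, media against naive and rat tail collagen against media share the media libraries, so a high or low value there enters both with opposite sign. Their calls gave 3 members higher in both (Vcl, Gsn and Actn4), 12 higher and then lower, 3 lower and then higher (Vasp, Actn1 and Myl12a) and 6 lower in both. The lower call of Myl12a from naive cells to media (-0.22, adjusted p = 0.0307, edgeR) was lost without naive 2 (0.074), naive 3 (0.0752), media 1 (0.0686) or media 2 (0.123). Of the 17 not called in media against naive, 15 were lower in rat tail collagen, and Zyx was higher. The shares of all genes with these pairs of calls were not worked out, so the counts describe the members alone. Flna went from 1622 ± 146 CPM in naive cells to 1099 ± 41.7 in media and 544 ± 18.0 in rat tail collagen, and these 3 groups do not overlap. Vcl went the other way in every step, from 5.14 ± 1.64 to 23.9 ± 3.69 and 37.2 ± 4.03 CPM.

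A comparison of rat tail collagen with naive cells does not use the media libraries. There 29 members were lower and 4 higher (Vcl, Gsn, Actn4 and Arpc3), beside 35.4% and 36.5% of 19449 genes, with a median of -0.46. Vcl was higher by 2.86 and Gsn by 1.60 on the log2 scale, and Tmsb10 by -1.71, Flna by -1.57 and Coro1a by -1.21 were the most lowered. Another 9 members were not called. Among them were Vasp, Actn1, Tmsb4x, Actg1, Capza1, Wasf2, Arpc4 and Myl12a, which had moved in both other comparisons. Vasp stood at 359 to 429 CPM in naive cells and at 417 to 448 in rat tail collagen, a log2 difference of 0.19 (adjusted p = 0.0682, edgeR). Vasp was called higher than in naive cells in 7 alternatives, among them DESeq2 (adjusted p = 0.0303) and the fits without naive 3 (0.00405) or rat tail collagen 1 (0.0383), and lower, by -0.28, with offsets for GC content and length (0.00251). Actn1 differed by -0.02, with a 95% interval from -0.29 to 0.25, and Tmsb4x by 0.01, with one from -0.17 to 0.19. Arpc3 was higher by 0.26 and was not called without naive 1 (adjusted p = 0.0663, edgeR) or naive 2 (0.0636).

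Ratios of related genes within each library are free of the scaling between libraries. They were formed from CPM per kilobase of principal transcript, and tested by exact two-sided permutation over 21 ratio comparisons. With 3 libraries against 3 the smallest p that this test can give is 0.1, and the smallest adjusted p was 0.233, so no ratio could pass. Vasp to Evl was 0.57, 0.53 and 0.50 in media, 0.56, 0.54 and 0.49 in bovine collagen, 1.496, 1.61 and 1.86 in rat tail collagen and 0.83, 0.84 and 0.87 in naive cells. Evl was thus the higher of the pair in all libraries but the rat tail ones. Tmsb4x to Tmsb10 was 2.25 ± 0.08 in media, 2.21 ± 0.07 in bovine collagen, 4.39 ± 0.48 in rat tail collagen and 1.36 ± 0.21 in naive cells. Myl12a to Myl12b was 2.99 ± 0.09 in media and 6.01 ± 0.35 in rat tail collagen, without overlap (exact permutation p = 0.1). Actb to Actg1 was 16.5 ± 0.16 in naive cells, 9.10 ± 0.51 in media, 8.63 ± 0.51 in bovine collagen and 11.4 ± 1.47 in rat tail collagen. Actn1 to Actn4 was 2.17 ± 0.03 in naive cells and 0.87 ± 0.14 in media, and in rat tail collagen, at 1.19 ± 0.19, it overlapped with media. Msn to Ezr was 1.69 ± 0.05 in media and 1.61 ± 0.14 in rat tail collagen, and Dock2 to Dock8 was 2.44 ± 0.14 and 2.32 ± 0.06, and both pairs overlapped.

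**Figure D4:**
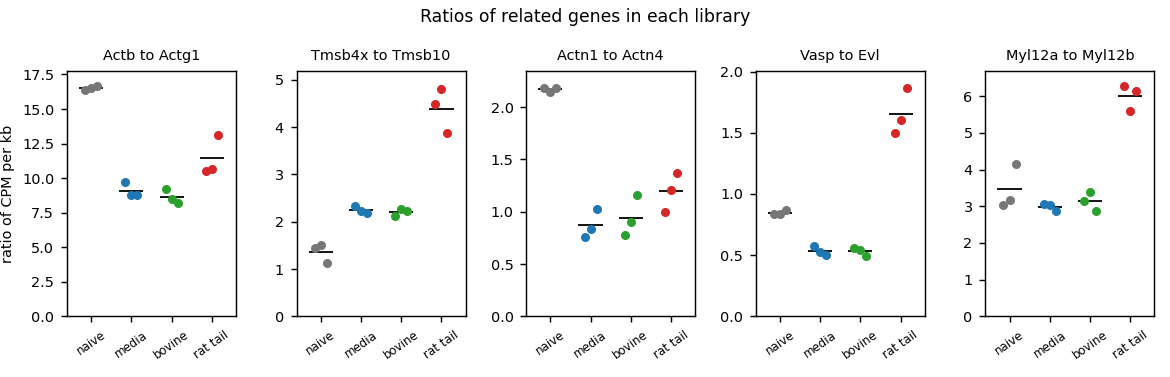
Ratio of CPM per kilobase of 5 pairs of related members in each library (points; axes start at 0), with the mean of 3 libraries as a line. Vasp to Evl, Tmsb4x to Tmsb10 and Myl12a to Myl12b are higher in all rat tail collagen libraries than in all other libraries.

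Per kilobase, the order of the members changed little at the top. Actb led in all 4 groups, at 4791 ± 548 CPM per kilobase in naive cells, 4420 ± 331 in media, 3971 ± 184 in bovine collagen and 2942 ± 61.7 in rat tail collagen. Tmsb4x came next in each group, at 2404 CPM per kilobase on average in naive cells, 3597 in media, 3226 in bovine collagen and 2408 in rat tail collagen. Tmsb10 was the third in naive cells, media and bovine collagen, and with 551 CPM per kilobase it fell behind Pfn1, at 584, in rat tail collagen, where the 2 differ by little. Among the 42, Vasp moved from rank 24 in media to 12 in rat tail collagen and Actn1 from 30 to 18, while Flna moved from 22 to 30. The lowest ranks were held by Vcl, Myl12b, Gsn and Rdx in media.

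The genes that work on this network were followed in a list of 118 genes, of which 112 were tested in the day 4 comparisons. In rat tail collagen against media 25 were higher and 60 lower, beside 29.7% and 28.7% of all genes tested, and the median was -0.28, beside -0.01. In bovine collagen against media none was called (edgeR), with 4 at an unadjusted p under 0.05. Of 19 genes of filament turnover, capping and monomer handling, 9 were lower and 4 higher. Of 22 partners in the cortex and at adhesions 14 were lower and 5 higher. Of 13 genes of myosin control and other myosins 6 were lower and 5 higher, and of 6 other formins 2 and 3. Of 12 WAVE and WASP partners 4 were lower and 1 higher, and of 6 tropomyosins and tropomodulins 3 and 2. Of 4 other Arp2/3 subunits and inhibitors 3 were lower and 0 higher. All these lists are read against the same shares of all genes.

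The most lowered with a mean of 5 CPM or more were Ripor2, from 322 ± 16.5 to 55.2 ± 6.18 CPM (log2 -2.55, adjusted p = 6.4e-09, edgeR), and Add3, an adducin of the spectrin skeleton, from 408 ± 20.8 to 74.2 ± 3.83 CPM (log2 -2.47). Iqgap2, a scaffold of Rac and Cdc42, changed by -1.66, Myo1f, a class I myosin, by -1.65, and Gmfg, which takes apart Arp2/3 branches, by -1.61. Arhgap25, a GTPase-activating protein for Rac, changed by -1.56, Fyb, the adaptor ADAP, by -1.55, and Ssh2, a phosphatase that switches cofilin on, by -1.43. The most raised was Mical2, a redox enzyme that acts on actin, from 3.67 ± 0.53 to 89.0 ± 18.1 CPM (log2 4.59, adjusted p = 6.62e-09, edgeR). Myh10, the heavy chain of non-muscle myosin IIB, rose by 1.93. Capg, a capping protein of the gelsolin family, rose from 90.8 ± 13.9 to 202 ± 17.3 CPM (log2 1.14). Swap70 rose by 0.89 and the formin Fmnl3 by 0.72.

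**Figure D5:**
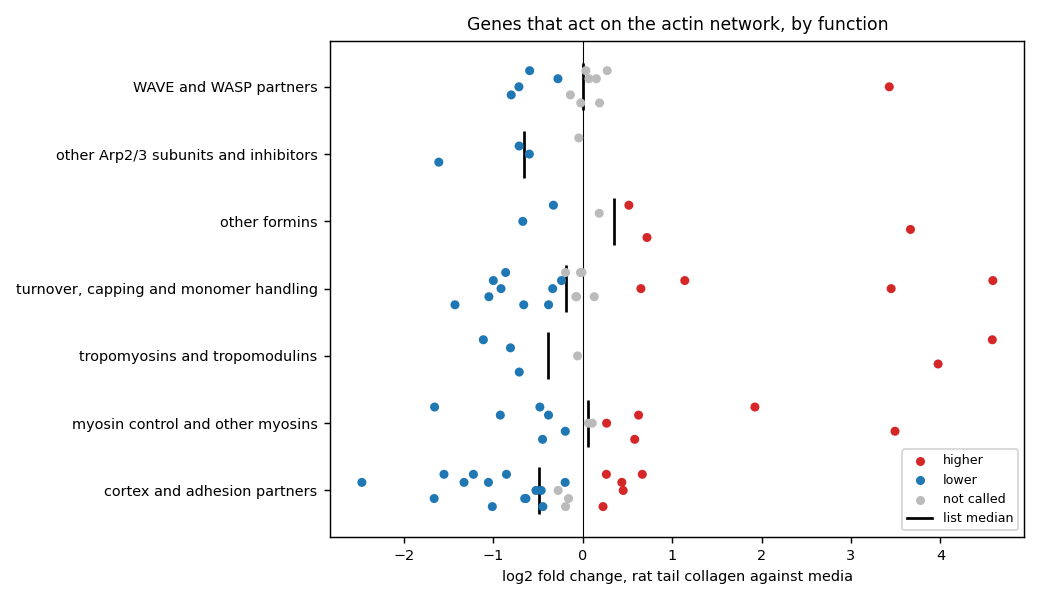
Log2 fold change of rat tail collagen against media for tested genes that act on the actin network (points), in the 7 functional lists named on the vertical axis, coloured by call, with the median of each list as a black line. Partners in the cortex and at adhesions lie mostly below 0, with a median of -0.49, and the highest point is Mical2 at 4.59.

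From naive cells to media the same list had 36 higher and 37 lower of 112, shares near the 31.6% and 29.2% of all genes. Diaph3, a formin related to Diaph1, rose from 5.49 ± 0.26 to 95.1 ± 5.98 CPM (log2 4.18, adjusted p = 1.52e-09, edgeR), and Cyfip1, of the WAVE complex, by 2.51. Capg rose by 2.33, the myosins Myo1c and Myo5a by 1.86 and 1.73 and Swap70 by 1.46. Ssh2 changed by -1.35, from 630 ± 11.9 to 236 ± 26.4 CPM, and Ripor2 by -0.88. Fmnl3, Stk10 (a kinase of ERM proteins), Arhgap4 and Dock10 changed by -0.81 to -0.64.

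Reads from genes on the opposite strand could add to some members if counting was not strand-specific, which is not given in the sources used here. In GENCODE M21 on GRCm38, Vasp (chr7:19256929-19271817, minus strand) overlaps 1700058P15Rik, Zyx (chr6:42349630-42360213, plus strand) overlaps Epha1, Vcl (chr14:20929398-21033676, plus strand) overlaps Ap3m1 and Coro1a (chr7:126699773-126707787, minus strand) overlaps Bola2 on the other strand. Actb, Actg1, Tmsb10 and Flna have no gene on the opposite strand in that annotation.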

How the data were processed

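The authors deposited raw read counts per gene symbol, 1 column per library. The submitters' processing notes name HISAT2, SAMtools, Picard, featureCounts, FastQC and MultiQC, with mm10 and GRCm38 as builds. No source used here gives their versions, the strand setting or the gene annotation. RNA was treated with DNase and depleted of rRNA, per the labels' protocols. Counts were analysed in R 4.3.3 with edgeR 4.0.16: genes kept by filterByExpr, TMM factors, quasi-likelihood F test with robust estimation, Benjamini-Hochberg adjustment over all genes tested. The 9 day 4 libraries shared 1 fit, and each comparison with naive cells used its 6 libraries. The common biological coefficient of variation was 12.2% on day 4 and 13.5% in media against naive. The pipeline was tested on simulated data. Alternatives were RLE factors, library totals, DESeq2 1.42.0, limma-voom (limma 3.58.1), other filters and fits, a replicate block and leaving out each library, and, chosen after seeing the data, a fit with rRNA genes removed, one with the 3 libraries richest in rRNA dropped, and GC and length offsets (mgcv 1.9.3; known for 97.4% of genes tested). The members and lists were chosen with earlier results of these data known. Members may be named in every comparison; of the 118 pathway genes, up to 8 per direction with adjusted p under 0.05, the largest change and a mean of 5 CPM in the higher group are named, apart from some that are not reported here. Shared sequence is the percent of a gene's 50-base words in GENCODE M21 transcripts found in other genes. Symbols not in GENCODE M21 held 2.28% of counts.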

Additional observations from a re-analysis of the deposited data

How the results depend on the processing

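Of the single-gene results under alternatives, 3692 kept their side of the threshold, 123 lost a call, 44 gained a call and 5 changed direction. A change of direction was counted only where the main fit or the alternative made a call. The 5 all came from offsets for GC content and length: Zyx against media (-0.18), bovine collagen (-0.11) and naive cells (-0.34) and Vasp against naive cells (-0.28), each in rat tail collagen, and Cotl1 in rat tail against bovine collagen (-0.25, adjusted p = 0.00499, edgeR). Under them 5 members were higher and 33 lower in rat tail collagen against media, and Cotl1 (-0.44) and Myl6 (-0.18) were called lower. Leaving out the 3 libraries of highest rRNA share gave 3 higher against media, and 2 higher and 18 lower against bovine collagen. Library totals gave 20 lower in rat tail against bovine collagen. Leaving out each library in turn gave 7 to 7 higher and 32 to 33 lower in rat tail collagen against media, 0 in bovine collagen against media, 5 to 6 and 32 to 33 in rat tail against bovine collagen, 10 to 15 and 7 to 11 in media against naive, and 3 to 6 and 28 to 29 in rat tail collagen against naive. The cause was not tested. Replicate numbers are shared between groups, but the labels tie them to no mouse, and deviations of same-numbered libraries correlated by only -0.03 to 0.44, not above 0.1 in every pair of any comparison. Every library correlated best with its own number in rat tail collagen against media and against naive, but not in the other comparisons. With a replicate block the counts were 7 higher and 33 lower against media, 7 and 33 against bovine collagen, 11 and 7 in media against naive, 6 and 29 in rat tail collagen against naive, and 0 in bovine collagen against media. With 3 libraries a group, small changes such as that of Tln1 are at the limit.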
